A study of Mus musculus with 10 samples.

Results

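The genes described here are the 8 measured members of a pair of protein families that take part in removing messenger RNA: Zfp36, Zfp36l1 and Zfp36l2 of the ZFP36 family, and Btg1, Btg2, Btg3, Tob1 and Tob2 of the BTG and TOB family. They were chosen by gene symbol from knowledge of the families, and are 8 of the 52097 genes in the expression table. RNA was sequenced from haematopoietic stem cells of mouse bone marrow, sorted at about 5000 cells per sample as lineage-negative, Sca-1+, c-Kit+, CD48- and CD150+ cells. The comparison asks what the loss of Dhx16, which encodes a helicase that remodels the spliceosome, does to the RNA of these cells. The 5 control samples have titles of the form Dhx16_fl and the genotype label WT. The 5 knockout samples have titles of the form Dhx16_CKO and the genotype label KO. The Cre driver, the age and strain of the mice, and whether each sample came from a separate animal are not given in the sources used here.

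ZFP36 proteins carry CCCH zinc fingers that bind AU-rich elements in the 3′ untranslated region (3′UTR) of short-lived mRNAs, and they recruit the CCR4-NOT deadenylase, the enzyme complex that shortens the poly(A) tail. BTG and TOB proteins bind the CAF1 subunits of that complex, Cnot7 and Cnot8, and TOB proteins also bind the poly(A) binding protein. Several of these genes are themselves induced rapidly by growth factors, stress or tissue handling, and Btg2 is also a p53 target. BTG1 and BTG2 are known for restraining proliferation and for keeping T cells quiescent.

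Values are FPKM, fragments corrected for the length of the transcript and the size of the library, which allows levels to be set side by side between genes. Library columns are named WT2 to WT6 in control and CKO7, CKO8, CKO9, CKO12 and CKO13 in knockout. Changes are knockout minus control on the log2(FPKM + 1) scale from limma, with a Benjamini-Hochberg adjusted p under 0.05 as the threshold. A log2 change understates the change of genes with low levels on that scale. Of the 52097 genes, 6913 were tested because they reached 10 FPKM in at least 5 libraries. All 8 members passed that filter. No Tob1 value and only 1 Zfp36l1 value reached 10 FPKM in knockout, so both genes passed mainly through the controls and had to differ.

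The level of Dhx16 was 17.5 ± 3.81 FPKM in control (mean ± SD, n = 5 in each group throughout) against 9.49 ± 1.56 in knockout libraries, and the groups did not overlap. This is a gene-level value that may include RNA outside the deleted part of the gene. Library columns summed to 770789 to 957520 FPKM in control and 877099 to 966648 in knockout, and the sequencing depth is unknown. Of 12 tested haematopoietic stem cell genes 10 were called lower and 0 higher, among them Slamf1, which encodes the sort marker CD150, at 21.5 ± 4.65 against 10.9 ± 2.20, beside 31.6% lower among all tested genes. At the scaling of the authors' deposited fold changes 3 of the 12 were called lower (10.8% of tested genes), and with median-of-ratios factors over all genes 5 (11.8%). Among genes of other cells, 8 of 8 tested erythroid genes were called higher (summed level 120 to 397 FPKM in control and 753 to 1177 in knockout), 8 of 8 megakaryocyte and platelet genes lower (1528 to 2312 and 718 to 1412) and 3 of 3 macrophage genes lower (117 to 272 and 10.6 to 27.5). The shares among all tested genes were 21.1% higher and 31.6% lower. C1qa and C1qc, 2 of the 3 macrophage genes, and the platelet gene Clec1b were under 10 FPKM in every knockout library. These genes passed the filter through the controls and had to differ. The erythroid genes Ermap, Rhd, Rhag, Car1 and Klf1 had control values under 10 FPKM (lowest 1.59, 3.42, 5.59, 5.88 and 9.63). Their knockout values were all above 10 FPKM, which met the filter whatever the control level. At the authors' scaling 7 of the 8 megakaryocyte and platelet genes were called lower (10.8% of tested genes). The part of these cells in the levels of the 8 members was not tested. Neither the 6 granulocyte genes nor the 6 bone matrix genes were called, but these 12 genes together held 3.29% to 10.7% of the FPKM in control and 1.62% to 7.49% in knockout libraries. Genes of B lymphocytes summed to 30.2 to 50.1 FPKM in control and 18.9 to 32.4 in knockout, and those of T and NK lymphocytes to 60.7 to 164 and 66.7 to 125. Most of these sums came from Cd79b, the only B cell gene tested and called lower at 34.9 ± 7.76 against 22.5 ± 5.15 FPKM (-0.61, limma adjusted p = 0.00657), and from Nkg7 at 93.3 ± 40.0 against 99.8 ± 21.8 FPKM (not called, adjusted p = 0.630). The T and B cell genes Cd3e, Cd3g, Cd2 and Ms4a1 stayed under 1 FPKM in all 10 libraries.

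All 8 members were called lower in knockout libraries, with log2 changes from -1.92 for Btg2 to -0.39 for Zfp36l2. Across the 6913 tested genes 31.6% were called lower and 21.1% higher by the same rule, and the median of their changes was -0.12. Zfp36, Zfp36l1, Btg1, Btg3 and Tob1 had every knockout library below every control library, as did 22.1% of tested genes. For Tob1 the filter fixed this, since 0 of its knockout values reached 10 FPKM, and Zfp36l1 passed mainly through the controls. Zfp36, Btg1 and Btg2 had knockout means of 33.7%, 31.0% and 31.8% of the control mean, and 7.1% of tested genes had a knockout mean below 50% of control. Without the 3 libraries highest in granulocyte genes (WT3, WT5 and CKO8), 5 members were called lower beside 24.1% of tested genes. In bulk samples fewer cells with a transcript and less of it per cell cannot be told apart.

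**Figure D1:**
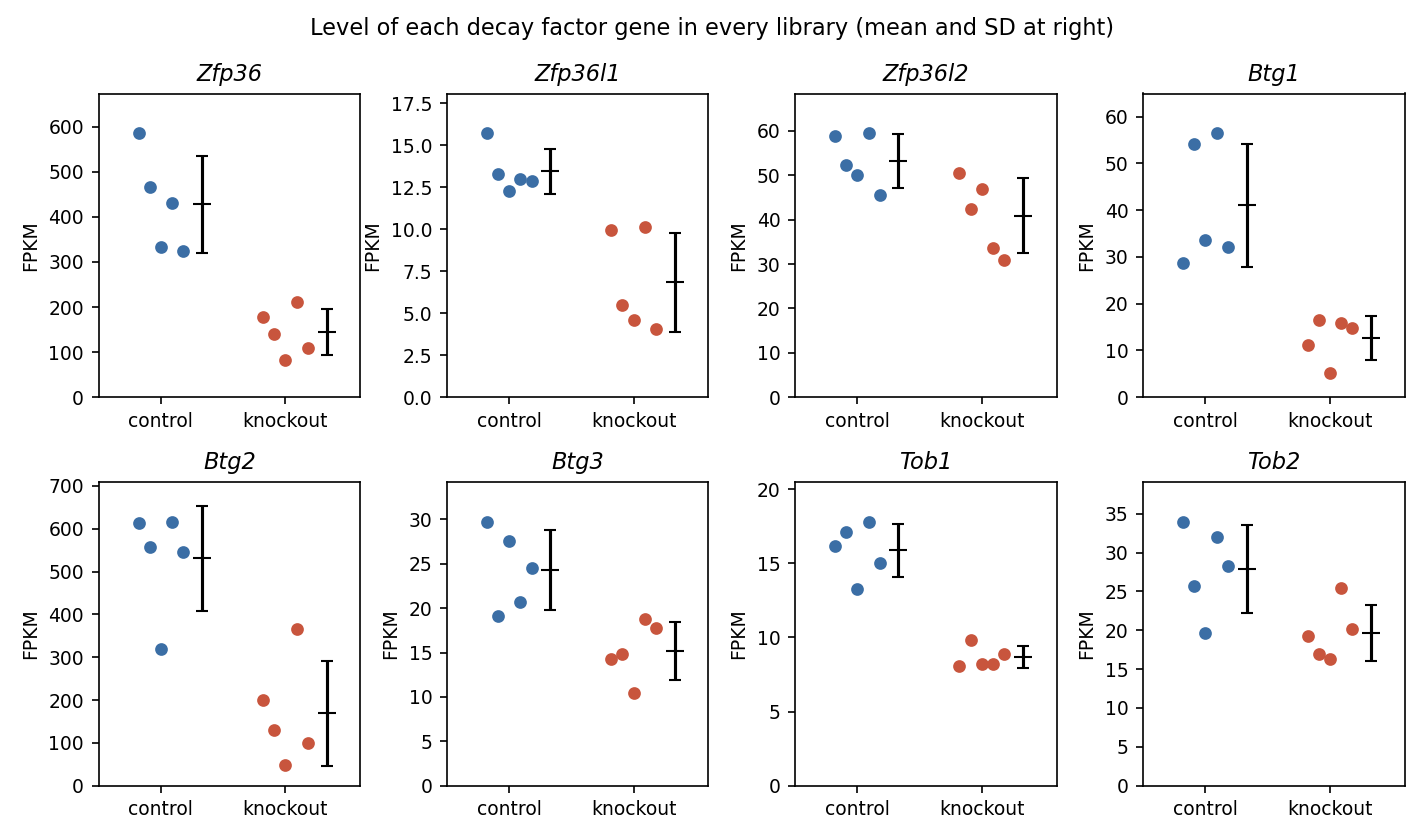
FPKM of the 8 genes (vertical axes) in each of the 5 control and 5 knockout libraries, with a point for each library and, to the right of each group, the mean and SD. Zfp36, Zfp36l1, Btg1, Btg3 and Tob1 show no overlap between groups, and Btg2 shows 1 control library at 319.65 FPKM below the knockout library CKO12 at 365.

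In control libraries the order of mean levels ran from Btg2 at 531 ± 122 FPKM and Zfp36 at 428 ± 108 through Zfp36l2 at 53.2 ± 5.99, Btg1 at 41.0 ± 13.2, Tob2 at 27.9 ± 5.65, Btg3 at 24.3 ± 4.49 and Tob1 at 15.9 ± 1.80 to Zfp36l1 at 13.4 ± 1.33. The control ranges of neighbours in this order overlapped except between Zfp36 and Zfp36l2 and between Btg3 and Tob1. Zfp36 in control stood above 96.8% of the tested genes. In knockout libraries Btg2, Zfp36 and Zfp36l2 kept the highest means, followed by Tob2, Btg3, Btg1, Tob1 and Zfp36l1.

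Sequence of the promoters is shown for the 3 genes whose mean fell most, Zfp36, Btg1 and Btg2. Each run is the 250 bases before the start site on the gene's strand, 5′ to 3′, from RefSeq on GRCm38.p6. Capitals mark matches to the motifs searched on both strands. These were the cAMP response element TGACGTCA, the CArG box bound by serum response factor and the AP-1 pattern TGANTCA with any base at N. The FOXO site TGTTTAC and the TATA box TATAAA were also searched. Zfp36 is shown at chr7:28379229-28379478 on the minus strand, Btg1 at chr10:96616751-96617000 on the plus strand and Btg2 at chr1:134079156-134079405 on the minus strand. The Zfp36 window lies inside the GENCODE extent of the gene, chr7:28376784-28380253, so the RefSeq start used here is not the outermost GENCODE start.
Zfp36: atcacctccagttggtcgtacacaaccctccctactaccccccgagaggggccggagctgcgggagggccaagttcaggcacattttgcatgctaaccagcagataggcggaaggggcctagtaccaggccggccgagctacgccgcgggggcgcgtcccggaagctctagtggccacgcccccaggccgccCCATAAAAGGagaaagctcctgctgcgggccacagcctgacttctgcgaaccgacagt
Btg1: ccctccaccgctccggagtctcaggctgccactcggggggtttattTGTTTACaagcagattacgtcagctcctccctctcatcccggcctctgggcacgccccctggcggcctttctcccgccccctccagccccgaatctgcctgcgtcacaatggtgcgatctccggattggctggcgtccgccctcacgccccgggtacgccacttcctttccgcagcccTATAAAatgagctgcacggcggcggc
Btg2: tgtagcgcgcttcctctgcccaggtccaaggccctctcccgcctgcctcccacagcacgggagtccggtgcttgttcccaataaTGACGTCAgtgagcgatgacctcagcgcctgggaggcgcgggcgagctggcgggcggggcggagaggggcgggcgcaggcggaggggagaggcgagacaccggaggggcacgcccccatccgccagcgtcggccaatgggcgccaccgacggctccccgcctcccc

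The Zfp36 window held a CArG box that began 58 bases before the start site, the Btg1 window a FOXO site at 204 and a TATA box at 26 bases before it, and the Btg2 window a cAMP response element at 166 bases before it. Promoter windows of 300 bases, which add the 50 bases after the start, matched 7 of the 8 members, with 8 windows because Btg3 had more than 1 start. Zfp36l2 had no entry. Zfp36l1 held a match to the AP-1 pattern, TGATTCA, and a TATA box. Tob1 held a TATA box, and the windows of Btg3 and Tob2 held none of these letters. No matches overlapped. Of all 32851 windows, 1.79% held the cAMP response element, 1.63% the CArG box and 7.81% the AP-1 pattern. The FOXO site was in 3.65% and the TATA box in 13.6%. Of the 6783 windows of tested genes the shares were 3.21%, 1.25%, 4.70%, 2.68% and 7.02% in the same order. A match describes the letters only, and binding was not measured.

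Zfp36 encodes tristetraprolin, the best known member of its family, and binds and destabilises mRNAs of Tnf and other cytokines. It lies at chr7:28376784-28380253 on the minus strand (ENSMUSG00000044786, GRCm38). In control libraries WT2 to WT6 its level was 586, 466.00, 332, 431 and 323 FPKM. In knockout libraries CKO7, CKO8, CKO9, CKO12 and CKO13 it was 177, 140.5, 83.45, 211 and 109 FPKM. Every knockout library was below the lowest control library, and CKO9 was the lowest of all. The log2 change was -1.60 (SE 0.25, limma adjusted p = 0.000206), and the exact two-sided permutation p was 0.00794, the smallest that 5 against 5 libraries can give. An antisense gene, Gm44710, overlaps Zfp36 and was at 3.42 FPKM or less in each library, and the strand setting of the counting is not given in the sources used here.

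Zfp36l1 encodes a paralog that is widely expressed and acts with Zfp36l2 in lymphocyte development. It lies at chr12:80107754-80113013 on the minus strand (ENSMUSG00000021127). Its control values were 15.71, 13.28, 12.29, 12.99 and 12.87 FPKM, and its knockout values were 9.92, 5.46, 4.61, 10.14 and 4.06 FPKM. The groups did not overlap, and the knockout libraries fell into CKO7 and CKO12 near 10 FPKM and the other 3 libraries between 4.06 and 5.46. The mean changed from 13.4 ± 1.33 to 6.84 ± 2.96 FPKM, a log2 change of -0.96 (SE 0.21, limma adjusted p = 0.00157).

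Zfp36l2, a paralog needed for haematopoietic stem and progenitor cells in mice, lies at chr17:84183931-84187947 on the minus strand (ENSMUSG00000045817). Its control values were 58.91, 52.27, 49.98, 59.52 and 45.47 FPKM, and its knockout values were 50.5, 42.51, 47.03, 33.72 and 30.83 FPKM. The groups overlapped, since CKO7 and CKO9 lay above the lowest control library. The lowest knockout values were those of CKO12 and CKO13, while Zfp36 had its highest knockout value in CKO12. The log2 change of Zfp36l2 was -0.39 (SE 0.14, limma adjusted p = 0.0318), and this call was lost on leaving out any of WT2, WT3, WT5, CKO12 or CKO13, with adjusted p from 0.0504 to 0.0920.

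The AU-rich heptamer TATTTAT, the core of a ZFP36 binding site, was counted on the sense strand in the longest annotated 3′UTR of each gene (GENCODE M21, GRCm38). All 3 ZFP36 family genes held 3 heptamers, a number reached or passed by 2.88% of the 6539 tested genes with a 3′UTR. Btg2 and Tob2 held 1 each, and Btg1, Btg3 and Tob1 held 0. One site per gene is printed below to show the heptamer (capitals) in its context, as the mRNA strand written with T. The sites of Zfp36l1 and Zfp36l2 shown extend to the nonamer TATTTATTT, in which the last letters are in lower case.
Zfp36, chr7:28376962-28376968, minus strand: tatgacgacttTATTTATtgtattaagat
Zfp36l1, chr12:80108178-80108184, minus strand: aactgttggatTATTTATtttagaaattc
Zfp36l2, chr17:84184691-84184697, minus strand: attgtatgtaaTATTTATttcattaattt
Btg2, chr1:134077260-134077266, minus strand: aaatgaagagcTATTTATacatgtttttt
Tob2, chr15:81849871-81849877, minus strand: tatcacctgctTATTTATgtacgaggttg

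The coordinates cover the heptamer, and 11 bases are shown on each side. In Zfp36 the 3 heptamers lay 575, 590 and 615 bases after the stop codon in a 3′UTR of 774 bases, so they were closely spaced. In Zfp36l1 they lay at 1150, 1191 and 1405 bases and in Zfp36l2 at 822, 870 and 1056 bases. The single heptamer of Btg2 lay 103 bases after the stop codon in a 3′UTR of 2199 bases. Among tested genes, 38.5% of the 1615 with a heptamer and 30.3% of the 4924 without were called lower, with median changes of -0.21 and -0.09. Genes with a heptamer had longer 3′UTRs, with a median of 1884 against 722 bases. When these genes were split into 4 groups of equal size by 3′UTR length, the share called lower with and without a heptamer was 29.2% and 23.7% in the shortest group, 35.7% and 30.04% in the next, 39.9% and 34.5% in the third and 39.6% and 36.9% in the longest. With values as deposited, the share was higher with a heptamer in each length group, and the gap was smallest among the longest 3′UTRs. Only 89 genes of the shortest group held a heptamer. Within each group 3′UTRs with a heptamer were still longer, with medians of 264 against 219 bases in the shortest and 3061.5 against 2594 in the longest. A difference by heptamer apart from length was not tested.

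Btg1 encodes an antiproliferative protein that binds the CAF1 deadenylases. It lies at chr10:96617006-96622809 on the plus strand (ENSMUSG00000036478). Its control values were 28.67, 54.23, 33.56, 56.5 and 32.22 FPKM, and its knockout values were 11.13, 16.51, 5.18, 15.88 and 14.9 FPKM. No knockout library reached the lowest control library, and WT3 and WT5 stood above the other 3 controls. The log2 change was -1.65 (SE 0.31, limma adjusted p = 0.00153). WT3 and WT5 were also the libraries with the highest summed level of 6 granulocyte genes, 74170 and 70058 FPKM against 9623 to 27803 in the other controls, and CKO8, the highest knockout library for Btg1, had the highest sum in its group at 40842. Without those 3 libraries the change of Btg1 was -1.44 (adjusted p = 0.00773), and with granulocyte and bone matrix scores as covariates it was -1.19 (adjusted p = 0.00551).

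Btg2, a p53 target and immediate early gene that links mRNA decay to growth arrest, lies at chr1:134075170-134079120 on the minus strand (ENSMUSG00000020423). Its control values were 613, 558, 319.65, 617 and 546 FPKM, and its knockout values were 200.1, 129.6, 47.97, 365 and 99.9 FPKM. It had the widest relative spread of the 8 genes in knockout libraries, with an SD of 72.9% of the mean against 23.0% in control. WT4 stood below the other controls and CKO12 above it, so the groups overlapped. The log2 change was -1.92 (SE 0.50, limma adjusted p = 0.0114, exact permutation p = 0.0159). This call was lost with the granulocyte and bone matrix covariates (-1.74, adjusted p = 0.0854), under which 29.2% of tested genes were called lower, and without WT3, WT5 and CKO8 (-1.78, adjusted p = 0.128).

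Btg3, another antiproliferative member of the family, lies at chr16:78332637-78377192 on the minus strand (ENSMUSG00000022863). Its control values were 29.76, 19.14, 27.63, 20.66 and 24.5 FPKM, and its knockout values were 14.27, 14.84, 10.49, 18.8 and 17.76 FPKM. The groups did not overlap, but WT3 at 19.14 and CKO12 at 18.8 were close. The log2 change was -0.65 (SE 0.16, limma adjusted p = 0.00376). Cxadr overlaps Btg3 on the opposite strand and was at 0.68 FPKM or less in each library, and Gm49590 overlaps it on the same strand. Zfp36l1, Zfp36l2 and Tob2 are overlapped on the opposite strand by Gm26669, AC132455.1 and Gm49476. Levels of these last 4 genes were not used here, and without a stated strand setting reads of overlapping genes cannot be told apart.

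Tob1 and Tob2 encode the larger members, which bring the deadenylase and the poly(A) binding protein together. Tob1 lies at chr11:94211454-94215495 on the plus strand (ENSMUSG00000037573) and was at 16.16, 17.14, 13.27, 17.81 and 15.02 FPKM in control and at 8.08, 9.84, 8.2, 8.23 and 8.91 FPKM in knockout libraries. The Tob1 groups did not overlap, which the filter fixed because all 5 control and 0 knockout values reached 10 FPKM. The spread of Tob1 was small, with a log2 change of -0.80 (SE 0.13, limma adjusted p = 0.000107). Tob2 lies at chr15:81848272-81858796 on the minus strand (ENSMUSG00000048546) and was at 33.99, 25.64, 19.63, 32.03 and 28.25 FPKM in control and at 19.28, 16.98, 16.3, 25.45 and 20.17 FPKM in knockout libraries. The Tob2 groups overlapped because CKO12 and CKO13 lay above WT4, while for Btg2 only CKO12 did. The log2 change of Tob2 was -0.48 (SE 0.16, limma adjusted p = 0.0185), and the call was lost without WT2 or without WT5 (adjusted p = 0.0526 and 0.0510). Other family members were near absent, with highest values of 0.11 FPKM for Zfp36l3 and 0.77 FPKM for Btg4, and the processed pseudogenes of Zfp36l1 and Btg1 stayed at 0.53 FPKM or less.

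The size of these changes depended on the scaling between libraries. After scaling to the level of the authors' deposited fold changes the median over the 6913 genes was 0.29, and 10.8% of genes were called lower and 44.8% higher. At that scaling 5 of the 8 members were called lower: Zfp36 (-1.19, limma adjusted p = 0.00131), Btg2 (-1.51, 0.0313), Btg1 (-1.26, 0.00693), Zfp36l1 (-0.59, 0.0317) and Tob1 (-0.42, 0.0102). Btg3 (-0.25, adjusted p = 0.206) and Tob2 (-0.08, adjusted p = 0.699) were not called, and the estimate for Zfp36l2 turned to 0.02 (adjusted p = 0.911). Equal column totals kept all 8 members lower (38.7% of tested genes lower and 15.3% higher), as did upper-quartile factors (35.3% and 23.1%). Median-of-ratios factors over tested genes kept 6 (28.5% and 28.9%), and the same factors over all genes kept 4 (11.8% and 44.2%). Under all 6 scalings run, Zfp36, Btg1, Btg2 and Tob1 were called lower, as were 10.5% of tested genes.

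The authors' deposited table, whose values come from counts, called 3 members lower at an adjusted p under 0.05, beside 11.5% of the 23405 genes with an adjusted p there. In the authors' deposited table the log2 fold changes of these 3 were -1.15 for Zfp36 (SE 0.27, adjusted p = 0.000134), -1.19 for Btg1 (SE 0.29, adjusted p = 0.000324) and -0.48 for Tob1 (SE 0.14, adjusted p = 0.00372). The other members were not called in the authors' deposited table, where Btg2 was at -1.19 (adjusted p = 0.0767), Zfp36l1 at -0.57 (0.0749), Btg3 at -0.26 (0.323), Tob2 at -0.22 (0.408) and Zfp36l2 at 0.03 (0.920). Zfp36, Btg1 and Tob1 were therefore lower in every scaling and in the authors' deposited table.

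**Figure D2:**
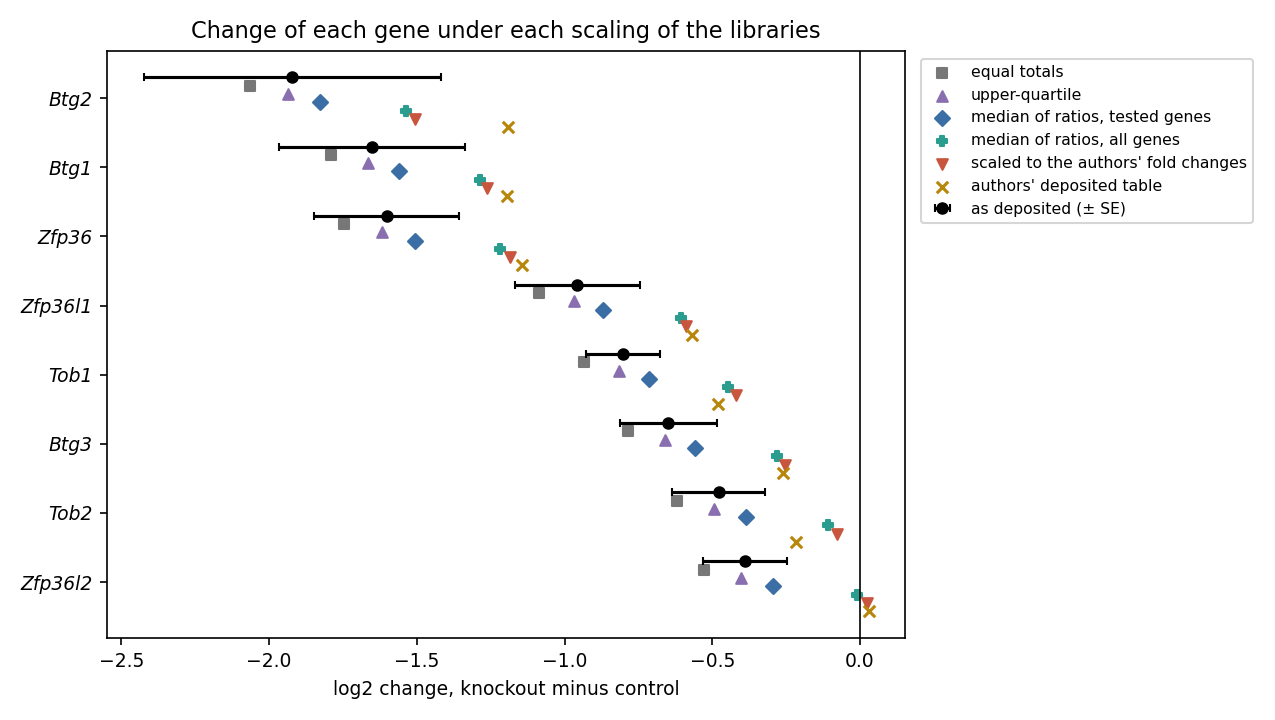
Log2 change of each of the 8 genes, knockout minus control (horizontal axis), under the 6 scalings between libraries and in the authors' deposited table (symbols), with bars of 1 SE for values as deposited. Adjusted p-values are not drawn. Zfp36, Btg1, Btg2 and Tob1 are called lower under all 6 scalings, while Zfp36l2 moves from -0.39 with values as deposited to 0.02 at the authors' scaling.

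A ratio of paralogs within a library does not depend on the scaling apart from the pseudocount, and 7 pairs were compared by exact two-sided permutation tests with adjustment over the 7. Zfp36 fell relative to both of its paralogs. Its log2 ratio to Zfp36l2 went from 2.95 in control to 1.74 in knockout (difference -1.21, exact p = 0.00794, adjusted p = 0.0278), and its log2 ratio to Zfp36l1 from 4.86 to 4.22 (difference -0.65, exact p = 0.00794, adjusted p = 0.0278). In the BTG family the log2 ratio of Btg1 to Btg3 went from 0.69 to -0.31 (difference -1.003, exact p = 0.0159, adjusted p = 0.0370), so Btg1 was above Btg3 in control and below it in knockout on average. The other 4 pairs did not pass: Zfp36l1 to Zfp36l2 (difference -0.57, exact p = 0.0714, adjusted p = 0.1), Btg2 to Btg3 (-1.27, exact p = 0.0397, adjusted p = 0.0694), Tob1 to Tob2 (-0.32, exact p = 0.0873, adjusted p = 0.102) and Btg1 to Btg2 (0.27, exact p = 0.540, adjusted p = 0.540). With a pseudocount of 0.1 the 3 called differences were -1.21, -0.55 and -1.05 and each had an adjusted p of 0.0556. With 1 library left out the smallest exact p is 0.0159, and 2 pairs that reach it have an adjusted p of 0.0556 unless other pairs come close to it. Without WT3, WT5, CKO7, CKO9 or CKO13 both Zfp36 pairs had that adjusted p, while over all 10 omissions the differences stayed between -1.43 and -0.98 to Zfp36l2 and between -0.72 and -0.57 to Zfp36l1. For Btg1 to Btg3 the adjusted p without CKO7, CKO9 or CKO13 was 0.0694, 0.111 and 0.0926, and the difference stayed between -1.19 and -0.81.

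The makeup of both families shifted with these ratios. The summed level of the ZFP36 family was 382 to 661 FPKM in control (median 503) and 135 to 255 FPKM in knockout libraries (median 188). Zfp36 made up 84.2% to 88.7% of that sum in control and 61.8% to 82.8% in knockout, so Zfp36 remained the most abundant of the 3 mRNAs in each library. The BTG and TOB family summed to 414 to 744 FPKM in control (median 674) and to 88.1 to 433 FPKM in knockout (median 188). Btg2 made up 77.3% to 85.0% of that sum in control and 54.4% to 84.2% in knockout. Shares are given as descriptions with no test.

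**Figure D3:**
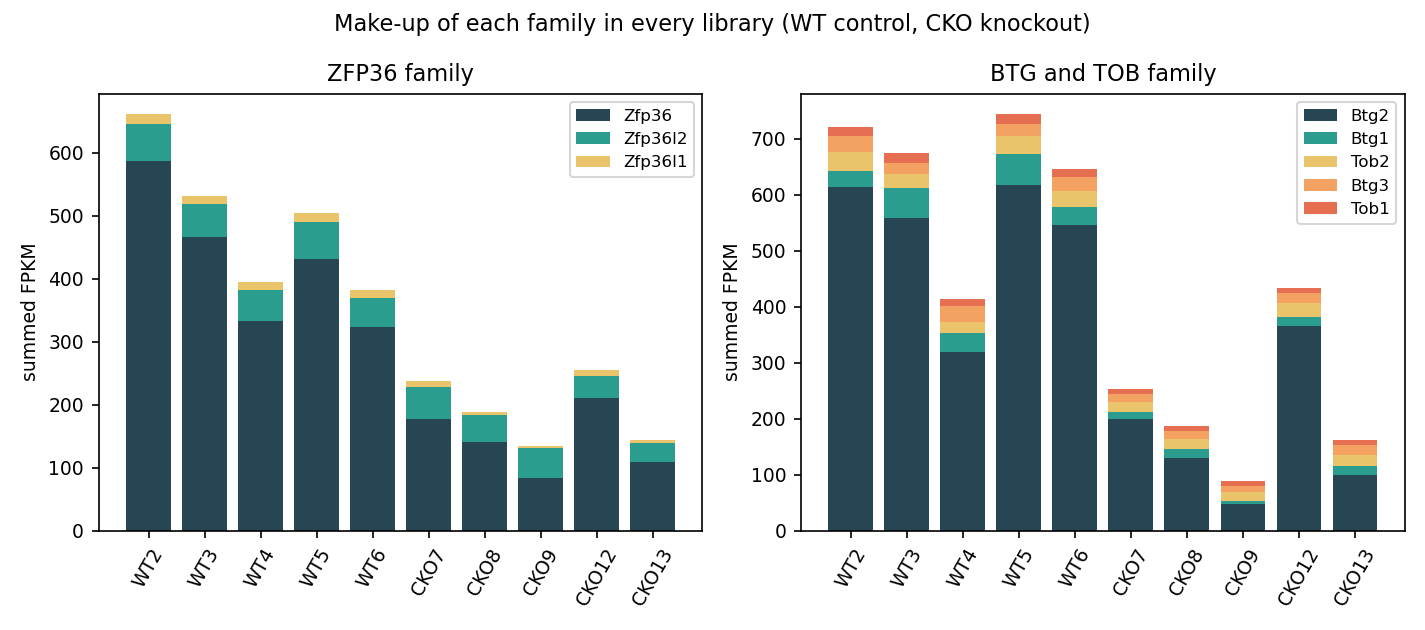
Summed FPKM of the ZFP36 family and of the BTG and TOB family (vertical axes) in each library, with each bar stacked by gene. Zfp36 and Btg2 make up most of the bars, and the family sums reach 255 and 433 FPKM at most in knockout libraries.

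Within groups, some members varied together across libraries. After the group means were removed, Zfp36 and Btg2 had a Pearson r of 0.89 over the 10 libraries, Zfp36 and Zfp36l1 of 0.84, and Btg2 and Zfp36l1 of 0.83. Zfp36l2 had r between -0.54 and 0.24 with the other members. These correlations share libraries and scaling, are given as descriptions, and rest on 10 libraries of unknown depth. The tested genes most like Btg2 by the same measure were Ppp1r15a (r = 0.99), a phosphatase subunit of the stress response, Nr4a1 (r = 0.97), an immediate early nuclear receptor, and Cd69 (r = 0.95), an activation marker. Those most like Zfp36 were Tsc22d2 (r = 0.98), Ccnl1 (r = 0.96), a cyclin linked to splicing, and Atf4 (r = 0.94), a stress response transcription factor. Those of Zfp36l1 were Hist3h2a, Lncpint and Sla (r from 0.95 to 0.97), and those of Zfp36l2 were Gm4759, Senp7 and Angpt1 (r from 0.93 to 0.96). Btg1 was most like Efhd2 (r = 0.97), Plaur and Gm20186, and Btg3 most like Hilpda (r = 0.89), Arf4 and mt-Nd3. Tob1 was most like Dgat1 (r = 0.91), Ccpg1 and Nadk, and Tob2 most like Dyrk3 (r = 0.93), Arid5a and Socs3. All of these genes were picked as the highest among all tested genes. The r that such a pick would reach by chance was not tested.

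Immediate early genes are transcribed within minutes of a stimulus, and cell sorting is known to induce them. The 26 genes of this list, which holds none of the 8 members, summed to 10191, 10924, 7040, 11472 and 9597 FPKM in control libraries WT2 to WT6. In the knockout libraries they summed to 5157, 3389, 1683, 7805 and 2829 FPKM. The order of the 5 knockout libraries by this sum was also their order by Zfp36 and by Btg2, with CKO9 lowest and CKO12 highest. WT4 was the lowest control library by the sum and for Btg2, and CKO12 lay above WT4 in both. The order of the control libraries for Zfp36 was another one, with WT6 lowest at 323 FPKM and WT2, the third by the sum, highest at 586. Of 19 tested genes of the list 16 were called lower and 0 higher, with a median change of -1.55, beside 31.6% lower over all tested genes, among them Egr1 (-2.66, limma adjusted p = 0.00267), Nr4a1 (-2.13, adjusted p = 0.0372) and Rhob (-1.94, adjusted p = 0.000235). At the authors' scaling 10 of the 19 were called lower (10.8% of tested genes), and without WT3, WT5 and CKO8 the count was 6 (24.1% of tested genes). The call of Nr4a1 was lost on leaving out any of WT2, WT3, WT5, WT6, CKO8 or CKO13 (adjusted p up to 0.0744). The part of the immediate early response in the levels of Zfp36 and Btg2 was not tested.

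**Figure D4:**
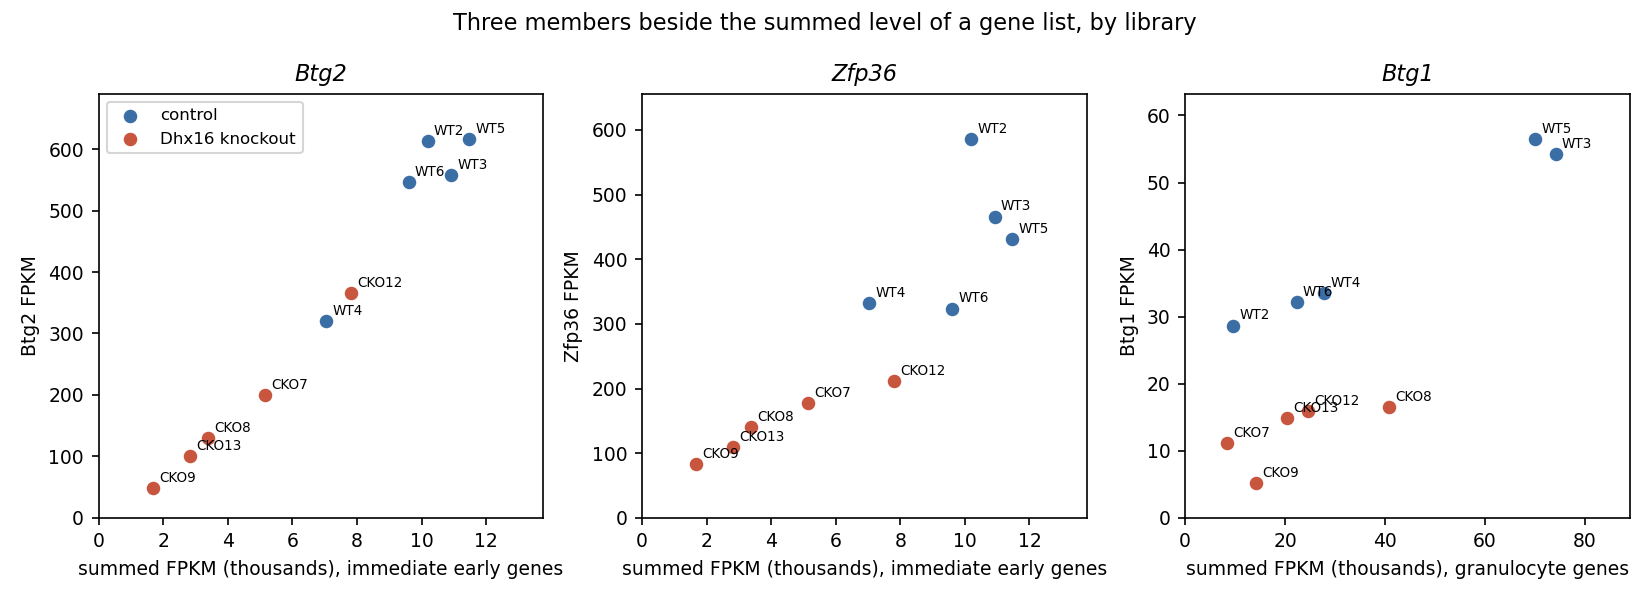
FPKM of Btg2, Zfp36 and Btg1 (vertical axes) in each library against the summed FPKM (axis values times 1000) of the immediate early genes or of 6 granulocyte genes (horizontal axes), with blue points for control and red points for knockout. Btg2 is lowest in CKO9 and the libraries WT4 and CKO12 lie next to each other, while for Btg1 all control libraries lie above all knockout libraries. The granulocyte sum reaches 40842 FPKM in knockout (CKO8), and WT3 and WT5 lie beyond it at 74170 and 70058.

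Genes called higher and genes called lower were both found in the machinery that the ZFP36, BTG and TOB proteins recruit. In CCR4-NOT, 1 of 8 tested subunits was called higher and 2 lower, with a median change of -0.12, beside 21.1% higher, 31.6% lower and a median of -0.12 over all tested genes. These counts are near that background and are no result about the complex as a whole. The scaffold Cnot1 had 23.5 ± 3.29 FPKM in control against 23.0 ± 7.61 in knockout (change -0.09, limma adjusted p = 0.739). Of the catalytic deadenylases, Cnot6l fell from 26.1 ± 3.88 to 14.8 ± 2.08 FPKM (-0.78, adjusted p = 0.000296) and Cnot8 from 59.6 ± 5.48 to 46.8 ± 2.79 FPKM (-0.34, adjusted p = 0.0127). Cnot7 was at 44.7 ± 4.01 and 39.8 ± 5.33 FPKM (-0.17, adjusted p = 0.244), and Cnot6 was below the filter at 5.92 ± 1.24 and 5.93 ± 1.21 FPKM. Cnot9, which binds RNA-binding partners of the complex, rose from 25.9 ± 3.49 to 38.9 ± 5.61 FPKM (0.56, adjusted p = 0.00186). Of these, Cnot6l was called lower and Cnot9 higher under all 6 scalings, as were 10.5% and 15.3% of tested genes.

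Among 7 tested genes of the PAN2-PAN3 deadenylase, Parn and the poly(A) binding proteins, 1 was called higher and 2 lower, with a median change of -0.20. Over all tested genes 21.1% were called higher and 31.6% lower, so these counts are near the background and are no result about the list. Pan3 (-0.44, limma adjusted p = 0.0224) and the poly(A) ribonuclease Parn (-0.37, adjusted p = 0.0235) fell, and Pabpc4 rose (0.43, adjusted p = 0.0430). These calls rest on single libraries: that of Pan3 was lost without WT4 or CKO12 and that of Parn without WT2, CKO7 or CKO13 (highest adjusted p 0.0552 and 0.0650), and that of Pabpc4 when any of 7 libraries, WT3 to WT6, CKO7, CKO8 and CKO13, was left out (highest adjusted p 0.119). In decapping and decay from the 5′ end, only the exonuclease gene Xrn2 of 8 tested genes was called, higher by 0.29 (adjusted p = 0.0387), and the list's median change was 0.12. The 1 higher and 0 lower genes of this list stand beside 21.1% and 31.6% over all tested genes. These counts leave out genes below the filter. Among those, Xrn1 was at 6.97 to 9.09 FPKM in control and 3.56 to 5.85 in knockout. Ddx6 (9.51 to 14.56 and 6.49 to 8.17) and Dcp1b (7.39 to 8.81 and 3.68 to 5.62) were also lower without overlap. Patl1 and Lsm14b overlapped between groups. With a filter at 1 FPKM, 1 of 12 genes of this list was called higher and 3 lower, beside 1797 and 4890 of 13448 genes. The Xrn2 call was lost without WT3, WT5, WT6, CKO7, CKO8 or CKO9 (highest adjusted p 0.0935). Of 12 tested genes of the exosome, which degrades RNA from the 3′ end, 5 were called higher and 0 lower, with a median change of 0.35, beside 21.1% higher over all tested genes. The catalytic subunit Dis3 rose from 10.4 ± 1.11 to 19.3 ± 4.51 FPKM (0.80, adjusted p = 0.000657) and Exosc8 from 37.6 ± 7.92 to 57.1 ± 14.8 FPKM (0.58, adjusted p = 0.0163). Exosc3, Exosc7 and Dis3 were called higher under all 6 scalings, as were 15.3% of tested genes. The counts moved with the scaling: with equal totals 3 of 12 exosome and 0 of 8 decapping genes were called higher, beside 15.3% of tested genes, and at the authors' scaling 12 of 12 and 6 of 8, beside 44.8%. Without WT3, WT5 and CKO8, 2 of 12 exosome genes were called higher, beside 883 of the 6913 tested genes. This count is near that background and is no result about the exosome.

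Other RNA-binding regulators of stability include proteins that act in the opposite direction to ZFP36. Elavl1, the mRNA stabiliser HuR, rose from 81.2 ± 10.6 to 128 ± 15.0 FPKM (0.65, limma adjusted p = 0.000477), and Hnrnpd, the AU-rich element binding protein AUF1, rose from 11.2 ± 2.36 to 20.2 ± 1.76 FPKM (0.81, adjusted p = 0.000234). Tia1, a translational repressor that binds U-rich sequence, fell from 77.3 ± 11.5 to 45.3 ± 5.93 FPKM (-0.76, adjusted p = 0.000224). These 3 were the only calls among 7 tested genes of the list, beside 21.1% higher and 31.6% lower over all tested genes. All 3 calls held under all 6 scalings, as did higher calls of 15.3% and lower calls of 10.5% of tested genes. The counts are near the background and are no result about the list. It holds 18 genes, most of them below the filter. With a filter at 1 FPKM, 2 of 16 were called higher and 5 lower, beside 1797 and 4890 of 13448 genes.

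ZFP36 proteins are phosphorylated by the kinase MK2 downstream of p38 and are then bound by 14-3-3 proteins, which limits their activity. In this group 5 of 11 tested genes were called higher and 3 lower, with a median change of 0.08. Over all tested genes 21.1% were called higher and 31.6% lower. The kinase genes Mapk14 (-0.47, limma adjusted p = 0.00267) and Mapkapk3 (-0.62, adjusted p = 0.000622) fell, as did Dusp1, the phosphatase that inactivates p38, from 881 ± 119 to 491 ± 183 FPKM (-0.92, adjusted p = 0.00446). Mapkapk2, which encodes MK2, was below the filter at 8.10 ± 1.11 and 6.90 ± 0.323 FPKM. The 14-3-3 genes Ywhae (0.59, adjusted p = 0.000639), Ywhaq (0.53, adjusted p = 0.00235) and Ywhaz (0.49, adjusted p = 0.0160) rose. These 3 were called higher under all 6 scalings, as were 15.3% of tested genes. The call of Ywhaz was lost without CKO7 (adjusted p = 0.0526), and Mapk14, Mapkapk3 and Dusp1 were not called at the authors' scaling. With equal totals 3 of the 11 genes were called higher and 4 lower, beside 15.3% and 38.7% of tested genes. At the authors' scaling 6 were called higher and 0 lower, beside 44.8% and 10.8%.

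A list of 37 mRNAs reported elsewhere as targets of ZFP36 proteins, drawn up from general knowledge, includes Zfp36 itself and 6 immediate early genes. Of the 23 tested genes outside the 8 members, 19 were called lower and 1 higher, with a median change of -0.92, beside 31.6% lower among all tested genes. At the authors' scaling 8 of these 23 were called lower, beside 10.8% of tested genes, and without WT3, WT5 and CKO8 the count was 11. The chemokine genes Ccl3 and Ccl4 fell from 76.9 ± 9.84 to 10.9 ± 5.86 FPKM (-2.85, limma adjusted p = 7.19e-05) and from 189 ± 31.0 to 42.8 ± 31.6 FPKM (-2.37, adjusted p = 0.00182). Jun, a subunit of AP-1, fell from 726 ± 204 to 252 ± 166 FPKM (-1.74, adjusted p = 0.0130). Ccne1, the cyclin of entry into S phase, rose from 8.85 ± 5.02 to 52.5 ± 9.16 FPKM (2.58, adjusted p = 0.000204) and was the only target called higher. Ccl3 and Ccl4 are also made by macrophages, whose genes fell here from a summed 117 to 272 FPKM in control to 10.6 to 27.5 in knockout libraries, and the part of these cells in the 2 chemokine values was not tested. Messenger RNA half-lives were not measured.

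**Figure D5:**
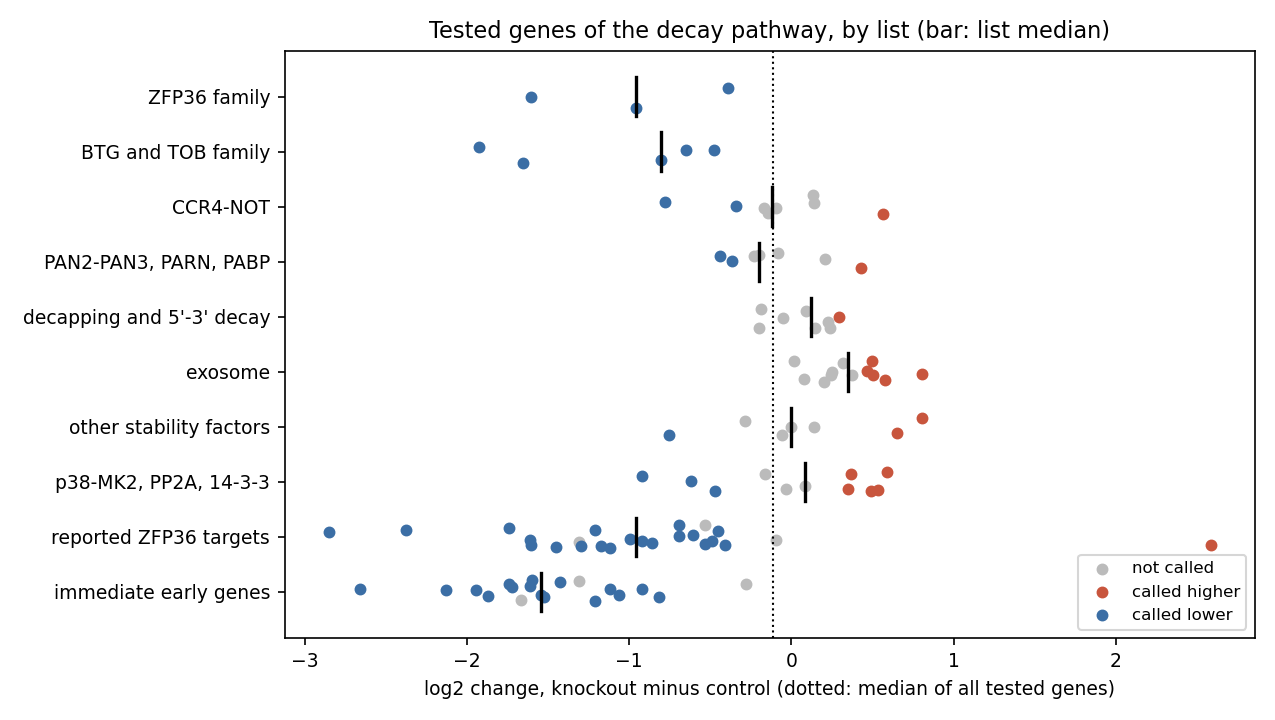
Log2 change, knockout minus control (horizontal axis), of each tested gene in the lists of the mRNA decay pathway (rows), with blue points for genes called lower, red points for genes called higher grey points for genes not called, black bars for list medians and a dotted line for the median of all tested genes. With values as deposited, the immediate early genes and all reported targets except Ccne1 lie below 0, with medians of -1.55 and -0.96 (Zfp36 included), while the exosome genes lie above it with a median of 0.35.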

How the data were processed

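Gene expression was measured by RNA-seq (Smart-Seq V4 libraries, Illumina) in 5 control and 5 knockout samples. Per the submitters' processing notes, Bowtie 0.12.9, Cufflinks 2.1.1 and HTSeq were used with the mm10 build, with no role stated for each. The deposited library columns carry no unit in the header and were taken as FPKM values made by the authors, because they have 2 decimals and because longer transcripts had more counts per unit (Spearman rho 0.793 over 6877 genes, a description across genes). The authors also deposited a signal for each gene, its normalized count averaged over libraries. The deposited log2 fold changes and standard errors, the score of the Wald test and each p-value and adjusted p-value come from the authors' own comparison, per the file headers.

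Columns matched a group by name but no titled sample, so each was used as a library of its group. Depth is unknown, and p-values measure only the spread between samples, which may be technical. The 6913 genes that reached 10 FPKM in 5 or more libraries were fitted with limma 3.58.1 in R 4.3.3 (trend and robust options) on log2(FPKM + 1), with Benjamini-Hochberg adjustment over all of them and no further scaling. Exact two-sided permutation tests over the 252 assignments of libraries (scipy 1.17.1, Python 3.11.15) were used for members and paralog ratios. Gene positions and 3′UTRs come from GENCODE M21, which matched all 52097 identifiers, and promoters from RefSeq.

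The members and lists were chosen with earlier results of these data known. Named genes are all members, up to 2 called genes with the largest rise and fall in each decay list, up to 3 each way among reported targets and immediate early genes, the catalytic deadenylases and Cnot1, and the 3 genes most like each member. Genes such as Mapk14, Mapkapk2, Ywhaz, Slamf1, Cd79b, Nkg7, C1qa, C1qc, Clec1b, Exosc3 and Exosc7 were named after their values were seen, for their role, their levels or their calls across scalings. The same holds for Xrn1, Ddx6, Dcp1b, Patl1, Lsm14b, Ermap, Rhd, Rhag, Car1 and Klf1. Alternatives changed the filter, pseudocount, scaling, weights, covariates and libraries.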

Additional observations from a re-analysis of the deposited data

Results flagged for a closer look

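Among the 30 groups of 5 libraries checked for a single library far from the others, 2 stood out, and chance alone marks about 1 in 20 groups. Zfp36l1 in the control library WT2 was at 15.71 FPKM, with the next control at 13.28. Btg2 in the control library WT4 was at 319.65 FPKM, with the next control at 546 FPKM, and WT4 also had the lowest immediate early gene sum of the controls, 7040 FPKM against 9597 to 11472.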

How the results depend on the processing

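Under the 26 settings run, Zfp36 and Btg1 were called lower in 26 of 26 and Tob1 in 25 of 25 in which it was tested. Zfp36l1 was called in 24 of 25, Btg2 in 24 of 26, Btg3 in 23 of 25, Tob2 in 18 of 26 and Zfp36l2 in 14 of 26. The cause of the lost calls was not tested.

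With no filter 4523 of 42256 genes were called lower, and with a filter at 1 FPKM 4890 of 13448. At 20 FPKM it was 1263 of 4606, against 2182 of 6913 with the filter at 10 FPKM. With no filter Zfp36l2 (-0.39, limma adjusted p = 0.113) and Tob2 (-0.48, 0.0822) lost their calls, and the 20 FPKM filter left 5 members, all 5 called lower. With no filter 8 of 79 genes of the decay machinery and partner lists were called higher and 13 lower. At 1 FPKM 15 of 76 were higher and 17 lower, against 15 and 8 of 53 with the filter at 10 FPKM. The median change of these lists, 0.13, turned to -0.080 with no filter, -0.052 at 1 FPKM and -0.0061 with equal totals, where 9 were higher.

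Median-of-ratios factors over tested genes gave 25 of these genes higher and lost Zfp36l2 (-0.30, adjusted p = 0.0620) and Tob2 (-0.39, 0.0842). The authors' scaling gave 3095 genes higher and 745 lower, 5 members lower, Zfp36l2 at 0.022, Btg3 at -0.25 and Tob2 at -0.077. It gave 34 machinery and partner genes higher and 2 lower, 8 reported targets lower (19 as deposited) and 10 immediate early genes lower (16 as deposited). Library quality weights lost Zfp36l2 (-0.31, adjusted p = 0.0555). With granulocyte and bone matrix covariates 954 genes were higher, Btg2 (-1.74) and Tob2 (-0.42, adjusted p = 0.0816) were not called, and 8 machinery and partner genes were higher and 9 immediate early genes lower.

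The next 3 settings were chosen after seeing the data. Without WT3, WT5 and CKO8, 883 genes were higher, 5 members lower, and Zfp36l2 (-0.36, adjusted p = 0.148), Btg2 (-1.78) and Tob2 (-0.39, 0.144) were not called, with 6 machinery and partner genes higher and 5 lower, 11 targets lower and 6 immediate early genes lower. Without WT6, CKO12 and CKO13, the libraries highest in bone matrix genes, Zfp36l2 was at -0.24 (adjusted p = 0.195) and 9 machinery and partner genes were higher. Median-of-ratios factors over all genes gave 3053 genes higher and 816 lower, 4 members lower, Zfp36l1 at -0.61 (adjusted p = 0.0543), Zfp36l2 at -0.010, Btg3 at -0.28 and Tob2 at -0.11, with 33 machinery and partner genes higher and 2 lower, 8 targets and 10 immediate early genes lower.

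With a pseudocount of 0.1 the paralog differences were -0.55 for Zfp36 to Zfp36l1, -1.21 for Zfp36 to Zfp36l2 and -1.05 for Btg1 to Btg3, each with an exact permutation adjusted p of 0.0556. Leaving out each library in turn moved these to between -0.72 and -0.57, -1.43 and -0.98, and -1.19 and -0.81, where the smallest exact p of 9 libraries limits the adjusted p. The ratio of Zfp36l1 to Zfp36l2 ranged from -0.78 to -0.41 and was called without CKO12, and that of Btg2 to Btg3 ranged from -1.55 to -1.02 and was called without WT4 or CKO12. Zfp36l2 ranged from -0.47 to -0.30 and Tob2 from -0.59 to -0.40, and 6 to 8 members were called lower.

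No paired analysis was possible because the columns carry no replicate numbers of the titles, so the planned replicate block was not run. Depth is unknown, so no detection limit is given.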
